A study of Homo sapiens with 2 samples.

Results

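Among human cardiomyocytes grown from stem cells, a small group of cells carried the RNA of liver secretory proteins. These hepatic cells were chosen by their own UMIs (unique molecular identifiers, the counted RNA molecules). The 12 genes that mark heart muscle (TNNT2, ACTN2, TTN, TNNC1, MYL4, MYL7, MYBPC3, NEBL, TNNI1, MYOM1, LDB3 and SMPX) had to sum to less than 20000 counts per 1000000 gene UMIs (CPM). AFP, APOA1, APOA2 and TTR together had to reach 20 UMIs and 3000 CPM. The rule found 140 of 21623 cells, which is 0.647% (95% Clopper-Pearson interval 0.545 to 0.764%), or 4.25% (3.59 to 5.00%) of the 3293 cells under the heart muscle limit. Intervals, all at 95%, are exact ones and reflect counting error alone.

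The cells are derivatives of H9, an established human embryonic stem cell line, and all of them carry the fluorescent calcium reporter gCaMP6f. They were frozen as cardiomyocytes at day 15 of differentiation. They were thawed in medium with insulin, serum and the ROCK inhibitor Y-27632, stained with hashtag antibodies (antibodies that bear an oligonucleotide and so label a sample), pooled, and captured with 10x Genomics reagents. The data are 1 library from 1 pool of 1 line, with 13 hashtags that the labels do not assign to any treatment, so the cells are no replicates and no test was made. The hepatic cells were set against 3 groups of the same pool: 594 epithelial cells (under the heart muscle limit, with at least 10 UMIs and 500 CPM of EPCAM, CLDN4 and WFDC2), all 3153 other cells under that limit (the epithelial cells included), and 18330 cardiomyocyte cells.

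The liver arises from the ventral foregut endoderm next to the developing heart, where signals from cardiac mesoderm and neighbouring tissue induce endoderm cells to become hepatoblasts, the shared progenitors of hepatocytes and bile duct cells. Hepatoblasts are known for secreting alpha-fetoprotein (AFP) and apolipoproteins under a network of transcription factors that includes HNF4A, FOXA2, HHEX, PROX1 and ONECUT1. Albumin, clotting factors and enzymes of nitrogen, alcohol and drug metabolism increase as hepatocytes mature, and the yolk sac endoderm shares many of the same secreted proteins.

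Many genes of secreted liver proteins are known to carry a TATA box, the element near the transcription start that positions RNA polymerase II. The 50 bases before the RefSeq start (GRCh38.p14) of each gene were therefore searched on both strands for TATAAA, without mismatches. Of 27305 genes with a promoter in the RefSeq table, 1028 (3.76%) held a match. Of the 154 genes in 8 liver function lists described below, 119 had an entry and 21 (17.6%) held a match, among them AFP, ORM1, CYP3A7, CYP3A4, ARG1, APOC2, GSTA1 and CRP. The 3 promoters shown, each as the 250 bases before the start, are those of the fetal secreted protein AFP (chr4:73435971-73436220, plus strand), of the plasma protein ORM1 (chr9:114322848-114323097, plus strand) and of the fetal liver cytochrome CYP3A7 (chr7:99735197-99735446, minus strand), with the match in capitals.
AFP: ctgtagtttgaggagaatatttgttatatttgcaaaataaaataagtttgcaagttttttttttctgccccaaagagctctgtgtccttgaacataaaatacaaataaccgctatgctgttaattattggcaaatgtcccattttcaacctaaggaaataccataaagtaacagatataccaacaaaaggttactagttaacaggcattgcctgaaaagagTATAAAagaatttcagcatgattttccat
ORM1: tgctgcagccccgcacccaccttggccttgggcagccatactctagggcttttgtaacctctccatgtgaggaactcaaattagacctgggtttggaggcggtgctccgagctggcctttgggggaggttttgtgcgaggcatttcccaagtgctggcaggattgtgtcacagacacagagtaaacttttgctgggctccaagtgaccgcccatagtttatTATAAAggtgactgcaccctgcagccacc
CYP3A7: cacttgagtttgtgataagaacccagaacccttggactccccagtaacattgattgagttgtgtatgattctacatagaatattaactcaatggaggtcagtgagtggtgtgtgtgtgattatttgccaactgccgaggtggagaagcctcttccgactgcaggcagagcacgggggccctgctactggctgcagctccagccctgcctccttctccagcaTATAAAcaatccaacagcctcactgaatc
In each of these 3 promoters the match began 29 bases before the start. Of the 21 genes with a match, 9 reached the level needed for comparison with cardiomyocyte cells and 9 were at least 2-fold higher in hepatic cells, as were 11.0% of all measured genes. Among the 98 genes without a match, 57 were measured and 50 were higher. The genes that chose the cells were not left out of these counts, and AFP is among the higher genes with a match. List genes that were low in cardiomyocyte cells could be measured only through their level in hepatic cells. For them a call of higher was largely fixed in advance, so these counts are descriptions. The genes with a match had a median level of 5.23 CPM in hepatic cells and those without one 14.5 CPM, and CYP3A4 and CRP, with a match, had no UMI there.

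A pair of host transcripts of small RNAs was also present in hepatic cells. MIR122HG (ENSG00000267391, chromosome 18, 58446275 to 58453766) spans the hairpin of miR-122, the abundant microRNA of hepatocytes, and H19 (chromosome 11, 1995176 to 2001470, minus strand), an imprinted fetal RNA, spans that of miR-675. The mature sequences, with the seed (bases 2 to 8) in capitals, lie at chr18:58451088-58451109 (plus strand) and chr11:1996800-1996822 (minus strand).
hsa-miR-122-5p: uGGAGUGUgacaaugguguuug
hsa-miR-675-5p: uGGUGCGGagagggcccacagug
The seeds differ. The library counted the host RNAs and not the mature microRNAs. MIR122HG was at 99.3 CPM in hepatic cells, 0.102 CPM in epithelial cells and 0.199 CPM in cardiomyocyte cells, and its level per hepatic cell ran from 0 over a median of 0 to 1118 CPM, with a UMI in 46.4% of the cells.

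The summed level of the 4 genes in the rule ranged from 3000.07 to 128959 CPM among hepatic cells, with a median of 15607 CPM. The lowest members had 3000.07 and 3054.56 CPM, and the cells just outside had 2868 and 2802 CPM. Near the limit, 12 members were at 3000 to 4000 CPM, 42 cells with 20 UMIs or more were at 1000 to 3000 CPM, and 11 cells past 3000 CPM had under 20 UMIs and were left out. At the other limit, 27 cells passed both hepatic thresholds and also held 20000 CPM or more of the heart muscle genes, the lowest 21382 CPM; they count as cardiomyocyte cells. The doublet caller Scrublet marked 21 of these 27 (77.8%), against 9 of the 140 hepatic cells (6.43%), and ratios to cardiomyocyte cells are given with and without the 27.

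Of the marker genes AFP, APOA1, APOA2, TTR, PLG and AKR1D1, the first 4 chose the cells. PLG and AKR1D1 were not in the rule, but the markers were listed with earlier results of these data known. Their levels are thus a description and no independent support for the label. PLG had a UMI in 44.3% of hepatic cells and AKR1D1 in 69.3%. PLG (plasminogen) was at 84.0 CPM (241 UMIs) in hepatic cells, 0 in epithelial cells and 0.255 CPM in cardiomyocyte cells. AKR1D1, a reductase of steroid and bile acid synthesis, was at 114 CPM in hepatic cells, 1.22 CPM in epithelial cells and 0.427 CPM in cardiomyocyte cells. Markers of other lineages gave small sums in hepatic cells, which were not below both other groups in each case. The 7 endothelial markers summed to 45.3 CPM in hepatic cells, 43.2 CPM in epithelial cells and 65.7 CPM in cardiomyocyte cells, with CDH5, PECAM1, KDR and TIE1 at 0 in hepatic cells. The 10 blood and macrophage markers summed to 16.7 CPM in hepatic cells, 0.815 CPM in epithelial cells and 1.31 CPM in cardiomyocyte cells. Of these, 8 were at 0 in hepatic cells and 1 was measured, CD68, a lysosomal protein abundant in macrophages, at 13.2 CPM in hepatic cells, 0.204 CPM in epithelial cells and 0.281 CPM in cardiomyocyte cells. The 7 neural markers summed to 22.3 CPM in hepatic cells, 161 CPM in epithelial cells and 5.80 CPM in cardiomyocyte cells, with the tubulin TUBB3 at 19.9, 66.0 and 2.24 CPM in the same groups. The 8 stromal markers summed to 38.0 CPM in hepatic cells, 1047 CPM in epithelial cells and 83.9 CPM in cardiomyocyte cells, the 7 epicardial markers to 3.48, 21.5 and 16.2 CPM, and the 6 pluripotency markers to 4.88, 41.6 and 10.1 CPM, with POU5F1 and NANOG at 0 in hepatic cells. The part of other cell types in the results was not tested.

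Hepatic cells held 2870222 UMIs in all, 1326 to 102201 per cell with a median of 17443, 3978.5 genes (median) and 2.32% mitochondrial UMIs (median). Cardiomyocyte cells held 266869851 UMIs with a median of 12547 per cell, and epithelial cells held 9815190 with a median of 15018.5. The 12 heart muscle genes had a median sum of 1534 CPM per hepatic cell (420 to 19677), 1693 CPM per epithelial cell and 41110.2 CPM per cardiomyocyte cell. A gene counts as measured where the group with the higher level has at least 10 CPM and 10 UMIs, and it is called higher or lower once the ratio reaches 2. Because the cells were chosen by their RNA, all counts of genes and all ratios are descriptions. UMIs are not scaled by transcript length, so levels are compared between cells and not between genes.

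Genes of secreted plasma proteins separated the hepatic cells from heart muscle by large folds. Of 9268 genes measured against cardiomyocyte cells, 1016 (11.0%) were higher and 1370 (14.8%) lower in hepatic cells, so that 42.6% of the calls were on the higher side, against 67.4% without a minimum level. The 8 liver function lists held 150 genes besides those in the rule, of which 76 were measured, 68 higher, 1 lower and 7 within 2-fold. Their median ratio was 251, or 400 without the 27 cells that passed both limits and 411 without cells marked as doublets, while the median over all genes measured was -0.08 on the log2 scale. The remaining list genes were too low in both groups to be measured, so these counts do not describe whole lists. List genes that were low in the comparison group could be measured only through their level in hepatic cells. For them a call of higher was largely fixed in advance, here and in the single lists and other comparisons below.

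The carriers, inhibitors and acute phase proteins of plasma had 17 of 26 genes measured besides AFP and TTR, which chose the cells, and all 17 were higher in hepatic cells than in cardiomyocyte cells, with a median ratio of 378. SERPINA1 (alpha-1-antitrypsin, an inhibitor of neutrophil elastase) was detected in every hepatic cell, at 208 to 49635 CPM with a median of 14236 CPM. Its summed level was 14629.9 CPM in hepatic cells, 103 CPM in epithelial cells and 37.2 CPM in cardiomyocyte cells, a ratio to the cardiomyocyte cells of 393 (385 to 402), or 1024 without the 27 cells. Even the lowest hepatic cell was above the summed levels of both other groups.

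AFP, the fetal counterpart of albumin, had 0 to 89744 CPM per hepatic cell with a median of 7293 CPM. It was at 10511 CPM in hepatic cells, 21.9 CPM in epithelial cells and 27.3 CPM in cardiomyocyte cells, and TTR, the carrier of thyroid hormone and of retinol-binding protein, was at 526, 7.03 and 2.39 CPM in the same order of groups. Both genes belong to the rule. ALB (albumin) was seen in 35.7% of hepatic cells only, at 0 to 31668 CPM with a median of 0. Its summed level was 455 CPM in hepatic cells and 0.405 CPM in cardiomyocyte cells, a ratio of 1124 (923 to 1381), or 2812 without the 27 cells. Of all albumin UMIs 1 hepatic cell held 40.8%, and without it the summed level was 271 CPM. In the albumin gene 10 hepatic cells held 89.1% of all UMIs, whereas the 10 highest cells held 27.8% for AFP and 18.7% for SERPINA1.

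Several other plasma genes were well above their level in heart muscle. AMBP (alpha-1-microglobulin and bikunin) was at 1517 CPM in hepatic cells and 4.02 CPM in cardiomyocyte cells (ratio 378, 353 to 404; 1061 without the 27 cells). AHSG (fetuin-A) was at 631 and 1.68 CPM (ratio 375; 1784 without them), and RBP4, the plasma carrier of retinol, at 413 and 0.903 CPM (ratio 458; 2288 without them). AHSG was present in 52.9% of hepatic cells and RBP4 in 56.4%, so the summed level hides many cells at 0. ORM1 (orosomucoid), whose UMIs may be shared with its near-identical neighbour ORM2, was at 432 CPM in hepatic cells and 0.723 CPM in cardiomyocyte cells. VTN (vitronectin) was at 500 CPM in hepatic cells, 13.2 CPM in epithelial cells and 3.45 CPM in cardiomyocyte cells, and CRP, the classical acute phase protein, had no UMI in hepatic cells, which allows up to 3 counts in the group.

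**Figure D1:**
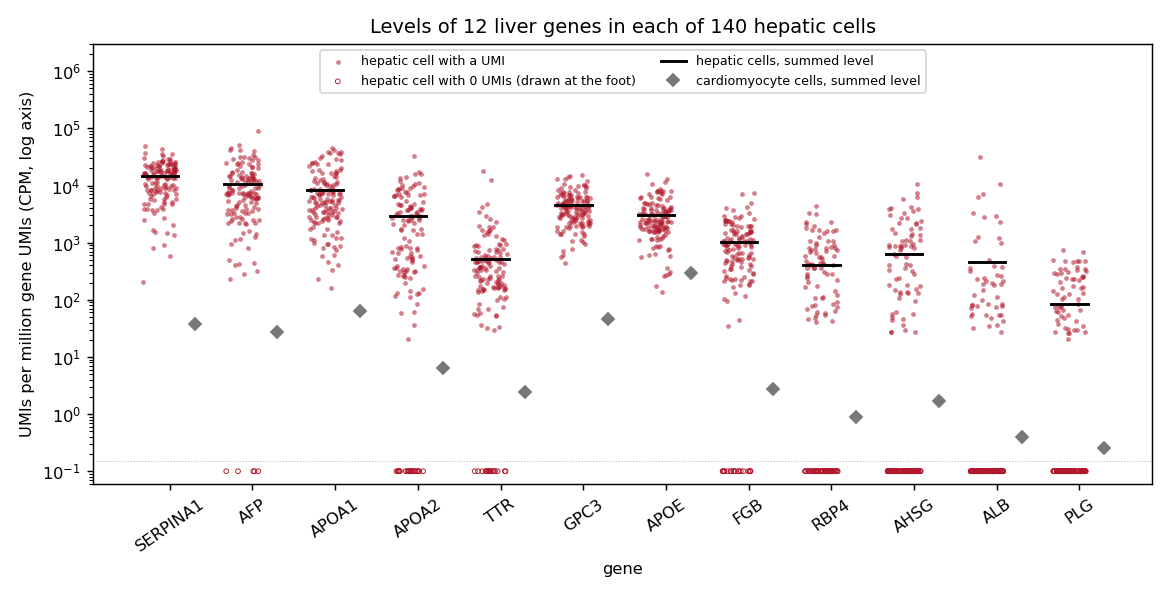
Level of 12 liver genes in each of the 140 hepatic cells (points, CPM on a log axis, cells with 0 UMIs drawn at the foot), with the summed level of the hepatic cells (bars) and of the cardiomyocyte cells (diamonds). SERPINA1, APOA1, GPC3 and APOE have a UMI in every hepatic cell, whereas ALB, AHSG and PLG have many cells at 0 and a few far above the summed level.

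Genes of lipoproteins and their assembly, without APOA1 and APOA2, which chose the cells, were higher in hepatic cells than in cardiomyocyte cells in 11 of 11 measured of 13, with a median ratio of 360. APOA1, the main protein of high-density lipoprotein, was in every hepatic cell at 161 to 45884 CPM with a median of 5549 CPM, and APOA2, its companion, ran from 0 over 975 to 33046 CPM; both were used in the rule. APOB, which forms the frame of low-density particles, was at 684 CPM in hepatic cells and 2.12 CPM in cardiomyocyte cells (ratio 323, 294 to 355; 754 without the 27 cells). MTTP, the transfer protein that loads lipid onto APOB, was at 167 CPM in hepatic cells and 1.18 CPM in cardiomyocyte cells (ratio 141). APOC3, an inhibitor of lipoprotein lipase, was at 742 CPM in hepatic cells, 0.204 CPM in epithelial cells and 1.85 CPM in cardiomyocyte cells, and its ratio to cardiomyocyte cells was 401 with and 2166 without the 27 cells. APOC2, the activator of the same lipase, was at 77.3 CPM in hepatic cells and 0.0787 CPM in cardiomyocyte cells (ratio 983, 627 to 1620). LIPC (hepatic lipase) was at 101 CPM in hepatic cells, 0 in epithelial cells and 0.195 CPM in cardiomyocyte cells (against the epithelial cells at least 329-fold higher, with a floor of 3 counts for that group).

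APOE, which is also made by many cells outside the liver, differed less: it was in every hepatic cell at 139 to 15876 CPM with a median of 2408 CPM, and its summed level was 3064 CPM in hepatic cells, 564 CPM in epithelial cells and 297 CPM in cardiomyocyte cells (ratio 10.3, 10.1 to 10.5). APOC1 was at 887, 22.3 and 18.9 CPM in the same groups. The adult intestinal apolipoprotein APOA4 had 3 UMIs in hepatic cells.

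Clotting and fibrinolysis genes were higher in 14 of 14 measured of 22, with a median ratio of 351. The 22 genes summed to 26.0 CPM in cardiomyocyte cells, so they were measured almost only through hepatic cells, and the count is no independent result. All 3 chains of fibrinogen, the precursor of the clot, were present: FGB at 1036 CPM in hepatic cells and 2.79 CPM in cardiomyocyte cells (ratio 372, 343 to 403; 915 without the 27 cells), FGG at 509 and 1.34 CPM (ratio 380; 1574 without them), and FGA at 164 and 0.296 CPM (ratio 554; 1558 without them). FGB had a UMI in 87.1% of hepatic cells, FGG in 76.4% and FGA in 59.3%. F2 (prothrombin) was at 66.2 CPM in hepatic cells and 0.161 CPM in cardiomyocyte cells (ratio 411, 294 to 586), and SERPINA5, the inhibitor of activated protein C, at 610 and 1.499 CPM (ratio 407). Parts of the cascade were not detected: F9 and KLKB1 (prekallikrein) had no UMI in hepatic cells and SERPINC1 (antithrombin) had 1.

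Complement genes were sparse, with 5 of 18 measured, 4 higher and 1 lower. C3, the central component, was at 66.5 CPM in hepatic cells, 0 in epithelial cells and 0.262 CPM in cardiomyocyte cells (ratio to cardiomyocyte cells 254, 192 to 339). C8B was at 16.0 CPM in hepatic cells and 0.0112 CPM in cardiomyocyte cells, where it had 3 UMIs, so its ratio of 1426 has an interval from 458 to 7166. MASP1, a protease of the lectin pathway, was the gene that was lower in hepatic cells, at 18.5 CPM against 71.1 CPM in cardiomyocyte cells (ratio 0.260). C4A, C4B and CFI had no UMI in hepatic cells.

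**Figure D2:**
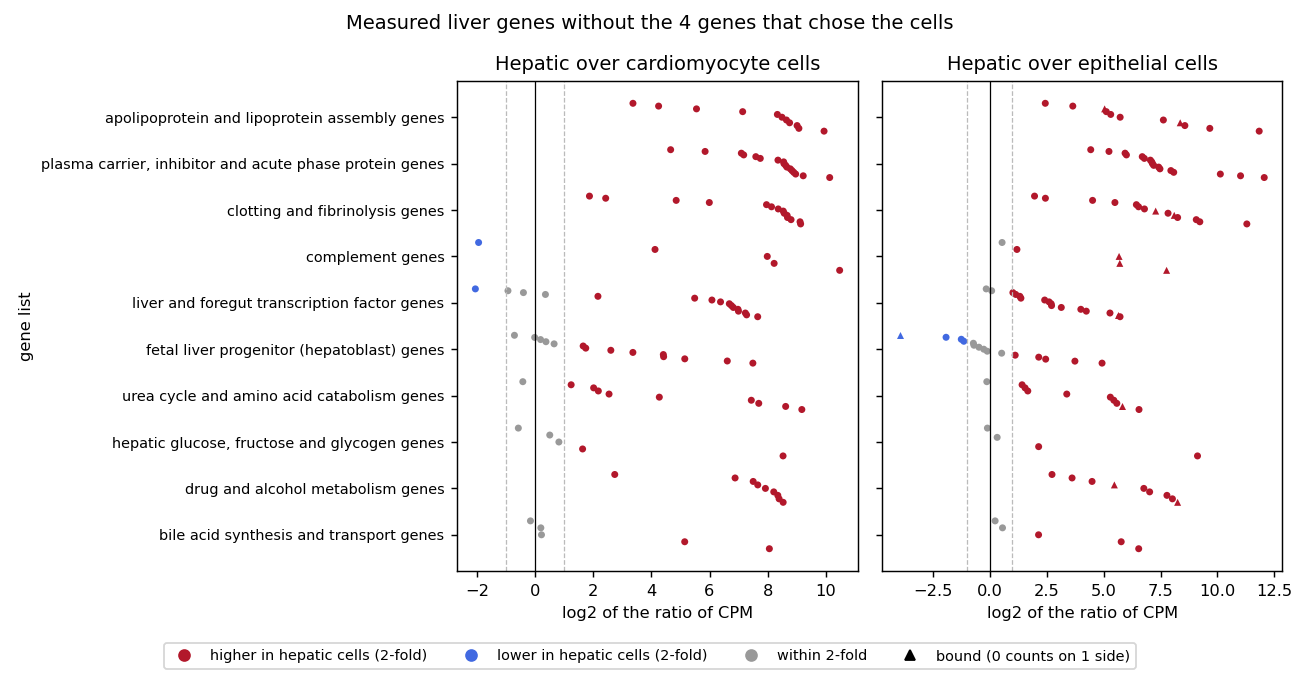
Ratio of CPM (log2) of each measured gene in 10 lists, for hepatic over cardiomyocyte and hepatic over epithelial cells, without the 4 genes that chose the cells; dashed lines mark 2-fold and triangles are bounds where 1 group had 0 counts. Lipoprotein, plasma protein and clotting genes lie to the right of 2-fold in both panels, with medians of 360, 378 and 351 against cardiomyocyte cells, while bile acid and glucose genes have members within 2-fold in both panels.

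Metabolic functions were present in part. Urea cycle and amino acid genes had 10 of 20 measured and 9 higher, with a median ratio of 12.6: ARG1 (arginase) was at 39.0 CPM in hepatic cells and 0.0674 CPM in cardiomyocyte cells (ratio 579, 350 to 1012), and TDO2 (tryptophan dioxygenase) at 24.0 and 0.139 CPM. CPS1, the first enzyme of the urea cycle, was not higher, at 11.5 CPM in hepatic cells and 15.4 CPM in cardiomyocyte cells (ratio 0.746, 0.513 to 1.05). Drug and alcohol metabolism had 9 of 20 measured and 9 higher, with a median ratio of 243. CYP3A7, the fetal form of the main liver cytochrome, was at 93.0 CPM in hepatic cells and 0.251 CPM in cardiomyocyte cells (ratio 371, 283 to 492; 727 without the 27 cells) with a UMI in 44.3% of hepatic cells, while the adult form CYP3A4 had no UMI. ADH1A and ADH1B, near-identical alcohol dehydrogenases whose UMIs may be shared, were at 77.7 and 67.2 CPM in hepatic cells, GSTA1 at 70.03 CPM and the sulfotransferase SULT2A1 at 26.5 CPM.

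Few bile acid and glucose genes reached the level for measurement. Of 19 bile acid genes, 5 were measured and 2 were higher, AKR1D1 and the canalicular transporter ABCC2 (11.1 CPM in hepatic cells and 0.315 CPM in cardiomyocyte cells), while 3 were within 2-fold; against epithelial cells 3 of 5 were higher. CYP7A1, the rate-limiting enzyme of bile acid synthesis, had no UMI in hepatic cells, and neither had the bile salt importer SLC10A1. Of 12 glucose, fructose and glycogen genes, 5 were measured and 2 were higher: SLC2A2, the glucose transporter of liver, at 56.8 CPM in hepatic cells and 0.154 CPM in cardiomyocyte cells (ratio 370, 261 to 534), and PCK2, while 3 were within 2-fold; against epithelial cells 2 of 4 were higher. For the genes of these 2 lists below the level for measurement, a difference was not detectable at this depth.

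Liver transcription factors accompanied the secreted proteins. Of 24 such genes, 16 were measured against cardiomyocyte cells, 12 higher, 1 lower and 3 within 2-fold, with a median ratio of 92.9. HNF4A, which sustains hepatocyte identity, had 0 to 496 CPM per hepatic cell with a median of 0 and a summed level of 48.4 CPM in hepatic cells, 0.917 CPM in epithelial cells and 0.240 CPM in cardiomyocyte cells (ratio to cardiomyocyte cells 202, 149 to 276; 286 without the 27 cells). The pioneer factors FOXA2 (72.8 CPM in hepatic cells and 0.674 CPM in cardiomyocyte cells, ratio 108) and FOXA3 (61.7 and 0.483 CPM, ratio 128) were higher as well.

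Factors known from liver bud formation did not all share a direction. HHEX, needed for the bud to form, was in 70.7% of hepatic cells at 131 CPM in hepatic cells, 20.0 CPM in epithelial cells and 0.873 CPM in cardiomyocyte cells (ratio to cardiomyocyte cells 150, 127 to 178; 198 without the 27 cells). ONECUT1 was at 172, 19.5 and 1.53 CPM in the same groups, and CEBPA, a factor of hepatocyte maturation, at 107, 2.75 and 1.29 CPM. PROX1 and TBX3, which let hepatoblasts leave the bud, are also made in heart: PROX1 was at 128 CPM in hepatic cells and 99.7 CPM in cardiomyocyte cells (ratio 1.28, within 2-fold) and 20.9 CPM in epithelial cells. GATA4, which heart muscle shares, was lower in hepatic cells, at 23.7 CPM against 98.5 CPM in cardiomyocyte cells (ratio 0.240, 0.187 to 0.305), and it was higher than the 10.7 CPM in epithelial cells.

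Factors of other endoderm were at or near 0. SOX17, which marks definitive and yolk sac endoderm before organs form, had 2 UMIs in 1 hepatic cell (0.697 CPM), against 17.3 CPM in all other cells under the limit. Those are cells of several kinds, and which of them held SOX17 was not examined. Against epithelial and cardiomyocyte cells its log2 ratio was 0.77 and 0.71, at levels too low to be measured. CDX2, the hindgut factor, had 1 UMI, NKX2-1, the factor of lung and thyroid, had 0, and PDX1, the factor of pancreas and duodenum, had 16 UMIs (5.57 CPM). Of 16 genes regional to other gut, 3 were measured against epithelial cells, 1 higher and 2 lower, and 1 was measured against cardiomyocyte cells, TFF3, a trefoil peptide of intestinal goblet cells, at 53.7 CPM in hepatic cells and 0.221 CPM in cardiomyocyte cells (ratio 243, 179 to 333).

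**Figure D3:**
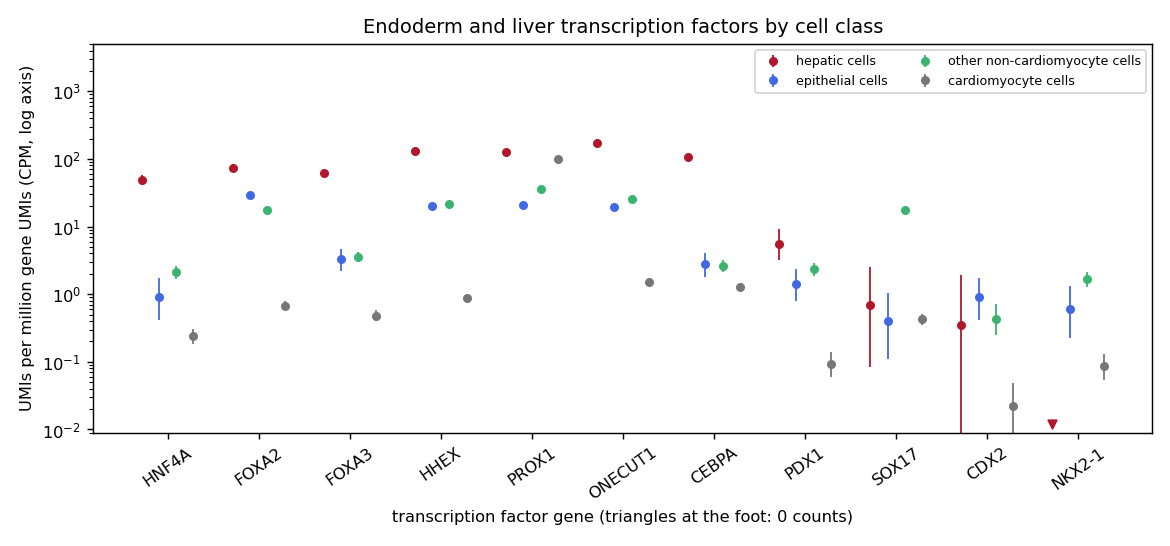
Level of 11 endoderm and liver transcription factor genes in hepatic, epithelial, all other non-cardiomyocyte and cardiomyocyte cells (CPM on a log axis, lines are exact 95% Poisson intervals, triangles mark 0 counts). HNF4A, HHEX, ONECUT1 and CEBPA are highest in hepatic cells, PROX1 is also high in cardiomyocyte cells, and SOX17 is highest in the other non-cardiomyocyte cells.

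Fetal and progenitor genes were higher than in heart muscle in most measured members, and split in both directions against the epithelial cells. Of 17 hepatoblast genes besides AFP, 14 were measured against cardiomyocyte cells, 9 higher and 5 within 2-fold, with a median ratio of 4.71. Against epithelial cells 15 were measured, 5 higher, 4 lower and 6 within 2-fold, with a median ratio of 0.837. Of all measured genes, 11.0% were higher than in cardiomyocyte cells, and 5.90% were higher and 10.6% lower than in epithelial cells. GPC3, a fetal liver proteoglycan, was in every hepatic cell at 438 to 15083 CPM with a median of 4037 CPM, and at 4484 CPM in hepatic cells, 815 CPM in epithelial cells and 45.9 CPM in cardiomyocyte cells (ratio to cardiomyocyte cells 97.8, 95.4 to 100.2; 116 without the 27 cells). The imprinted fetal genes IGF2 and H19, neighbours on chromosome 11, were at 439 and 1459 CPM in hepatic cells, 14.4 and 109 CPM in epithelial cells and 2.44 and 41.1 CPM in cardiomyocyte cells. DLK1, a surface marker of hepatoblasts, was at 241 CPM in hepatic cells and 260 CPM in epithelial cells.

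Yolk sac, duct and surface epithelium genes gave a mixed picture. Of all measured genes, 5.90% were higher and 10.6% lower than in epithelial cells, and 11.0% higher and 14.8% lower than in cardiomyocyte cells. Of 16 yolk sac genes, 5 were measured against cardiomyocyte cells and 4 were higher, and 7 were measured against epithelial cells with 4 higher and 1 lower, among them the fatty acid binder FABP1, which liver also makes (279 CPM in hepatic cells, 0.102 CPM in epithelial cells and 0.412 CPM in cardiomyocyte cells), and VIL1 at 25.8 CPM in hepatic cells, 1.43 CPM in epithelial cells and 0.536 CPM in cardiomyocyte cells. The yolk sac receptor gene CUBN and the factor SOX7 had no UMI in hepatic cells. Of the 8 duct genes 5 were measured against epithelial cells, 1 higher and 4 lower in hepatic cells (median ratio 0.422), and 4 against cardiomyocyte cells, 2 higher and 1 lower. SOX9 was the gene higher than in both groups (61.0 CPM in hepatic cells, 28.0 CPM in epithelial cells and 2.87 CPM in cardiomyocyte cells) and KRT19 was at 374 CPM in hepatic cells, 886 CPM in epithelial cells and 238 CPM in cardiomyocyte cells, while KRT7 had 1 UMI in hepatic cells against 22.7 CPM in epithelial cells. EPCAM, an adhesion protein of epithelia, was in 90.7% of hepatic cells, at 252 CPM against 24.5 CPM in cardiomyocyte cells (ratio 10.3).

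Hepatic cells differed from the epithelial cells of the pool in both directions. Of 9377 genes measured against epithelial cells, 553 (5.90%) were higher and 993 (10.6%) lower in hepatic cells, with a median over all of -0.20 on the log2 scale. TMM scaling, a normalization that allows for composition, put that median at -0.03 and it gave 46.2% of the calls on the higher side, against 35.8% without it, so ratios just past 2 depend on the scale. Of the liver function lists without the rule genes, 75 were measured and 69 were higher, with a median ratio of 64.1. The transcription factors had 14 of 16 higher, with a median ratio of 6.30.

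Epithelial keratin, junction and adhesion genes were lower in 13 of 17 measured and higher in none, or lower in 12 with TMM scaling. The simple keratins KRT8 and KRT18 were at 499 and 477 CPM in hepatic cells against 1739 and 2335 CPM in epithelial cells (ratios 0.287 and 0.204), CDH1 (E-cadherin) at 23.7 against 117 CPM, and CLDN7 at 24.7 against 242 CPM. WFDC2 and CLDN4, which chose the epithelial cells, were at 46.3 and 6.62 CPM in hepatic cells and 671 and 227 CPM in epithelial cells. Outside the lists, ANXA1 (an inflammation regulator) had 1 UMI in hepatic cells against 320 CPM in epithelial cells (ratio 0.00109, 2.76e-05 to 0.00607), and the receptor subunit GABRP and the chemokine CXCL14 had 0 against 137 and 78.6 CPM. The metallothionein MT2A, a metal buffer, was at 592 CPM in hepatic cells and 2235 CPM in epithelial cells (ratio 0.265).

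Against all 3153 other cells under the heart muscle limit, 484 of 9587 measured genes (5.05%) were higher and 1183 (12.3%) lower in hepatic cells, with a median of -0.25 on the log2 scale. With TMM scaling the median was -0.04 and 41.2% of the calls were on the higher side, against 29.03% without it. Of the 76 liver list genes measured, 69 were higher and 1 lower, with a median ratio of 64.3. SERPINA1 was at 14629.9 CPM in hepatic cells and 163 CPM in the others (ratio 89.8), and PLG at 84.0 and 0.0813 CPM (3 UMIs, ratio 1033, 349 to 5042).

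Genes of iron and cholesterol handling differed in single members. HAMP, which encodes the iron hormone hepcidin, was at 154 CPM in hepatic cells, 1.53 CPM in epithelial cells and 44.6 CPM in cardiomyocyte cells (ratio to cardiomyocyte cells 3.45, 3.13 to 3.80). FTL (ferritin light chain) was at 6964, 1847 and 745 CPM in the same groups (ratio 9.35), and TF (transferrin) at 19.9, 0.917 and 0.345 CPM. Cholesterol synthesis and uptake genes had 13 of 18 measured within 2-fold of cardiomyocyte cells, 1 higher and 4 lower, where 11.0% of all measured genes were higher and 14.8% lower. In the metallothionein and retinol list, 3 of 11 were higher, RBP4, DHRS3 and the rule gene TTR, and CRABP2, a retinoic acid binder, was lower at 37.6 CPM in hepatic cells against 249 CPM in cardiomyocyte cells (ratio 0.151).

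Heart muscle functions were lower in hepatic cells than in cardiomyocyte cells. Of all measured genes, 14.8% were lower than in cardiomyocyte cells and 10.6% lower than in epithelial cells. Glycolysis genes had 15 of 18 lower and none higher than in cardiomyocyte cells, with a median ratio of 0.373: HK1 (hexokinase) was at 18.5 against 153 CPM (ratio 0.121), PKM (pyruvate kinase) at 201 against 886 CPM (0.227) and GAPDH at 2645 against 6055 CPM (0.437). Against epithelial cells 4 of the 18 were lower, or 2 with TMM scaling, and 14 were within 2-fold. Ion channel and calcium genes had 12 of 14 lower than in cardiomyocyte cells, such as the pacemaker channel HCN4 (5.92 against 63.8 CPM, ratio 0.0928) and the calcium release channel RYR2 (23.3 against 224 CPM, ratio 0.104). GJB1, the gap junction protein of hepatocytes, was the 1 higher gene, at 29.3 CPM in hepatic cells and 0.101 CPM in cardiomyocyte cells (ratio 289, 186 to 464). Against epithelial cells 4 of 12 measured genes of this list were lower, 1 was higher and 7 were within 2-fold, with a median ratio of 0.643. Of the hepatic cells 19 held 10000 CPM or more of the heart muscle genes, and without them the log2 ratio was -4.64 in place of -3.43 for HCN4 and -4.18 in place of -3.26 for RYR2.

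Secreted growth factors had 7 of 18 measured higher and 5 lower than in cardiomyocyte cells, where 11.0% of all measured genes were higher and 14.8% lower. Against epithelial cells 3 of 21 were higher and 9 lower, where 5.90% of all measured genes were higher and 10.6% lower. IGF2, described above, and IGFBP1, a liver-made binding protein of insulin-like growth factors (48.8 CPM in hepatic cells, 0 in epithelial cells and 0.2998 CPM in cardiomyocyte cells), were the largest. BMP4, a signal of liver induction, was at 19.2 CPM in hepatic cells, 37.9 CPM in epithelial cells and 5.49 CPM in cardiomyocyte cells. INHBA, PTN, BMP7, NOG and TGFB1 were lower than in cardiomyocyte cells. Midkine (MDK) was at 2158 CPM in hepatic cells and 2169 CPM in cardiomyocyte cells (ratio 0.995, 0.970 to 1.02).

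Most division genes were within 2-fold of both other groups. Of 51 measured genes of G2 and M phase, 9 were higher and 42 within 2-fold of cardiomyocyte cells, and their summed level was 3139 CPM in hepatic cells, 4565 CPM in epithelial cells and 2248 CPM in cardiomyocyte cells. Of 34 S phase genes 10 were higher and 24 within 2-fold of cardiomyocyte cells, where 11.0% of all measured genes were higher. Against epithelial cells 7 of 52 genes of G2 and M phase were lower and 45 within 2-fold, and of 37 S phase genes 3 were lower, 1 higher and 33 within 2-fold, where 10.6% of all measured genes were lower. After every cell was thinned to 3000 UMIs, at least 3 of the G2 and M phase genes were detected in 72.4% of 134 hepatic cells (64.0 to 79.8%), 77.4% of epithelial cells (73.8 to 80.7%) and 53.0% of cardiomyocyte cells (52.2 to 53.7%). The intervals of hepatic and epithelial cells overlap. Unthinned, the shares were 99.3%, 99.5% and 96.7%. MKI67, a protein of dividing cells, was at 47.7 CPM in hepatic cells, 100.5 CPM in epithelial cells and 27.9 CPM in cardiomyocyte cells.

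Outside the lists, the genes with the largest ratios to cardiomyocyte cells at 50 CPM or more were mostly known from liver. SMLR1 led with 62.7 CPM in hepatic cells and 0.0974 CPM in cardiomyocyte cells (ratio 644, 425 to 1012), followed by TM4SF4 (291 and 0.918 CPM, ratio 317) and ASGR2 (65.2 and 0.206 CPM, ratio 316), a subunit of the asialoglycoprotein receptor of hepatocytes. A1CF, a cofactor of APOB RNA editing, was at 172 CPM in hepatic cells, 2.24 CPM in epithelial cells and 0.566 CPM in cardiomyocyte cells (ratio 304, 252 to 367; 502 without the 27 cells). FGFR4 and its coreceptor KLB, through which FGF19 acts on liver, were at 135 and 87.4 CPM in hepatic cells and 0.952 and 0.416 CPM in cardiomyocyte cells. The others were AGTR1, HABP2, CLDN1 and SULT1E1. On the lower side stood the heart and muscle genes NPPA (16.4 CPM in hepatic cells against 416 CPM in cardiomyocyte cells, ratio 0.0394), LAMA2, ACTA2, KLHL41 and CSRP3.

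Neighbouring genes of the liver gene clusters were not all detected alike in hepatic cells. On chromosome 4 (GENCODE 29, GRCh38), ALB (73397114 to 73421412), AFP (73431138 to 73456174) and AFM (73481683 to 73504001) lie side by side on the plus strand. AFM, the afamin gene, had 2 UMIs in hepatic cells, while ALB had 1306 and AFP 30168. On chromosome 11 APOA5 (116789367 to 116792420), APOA4 (116820700 to 116823306), APOC3 (116829706 to 116833072) and APOA1 (116835751 to 116837950) had 29, 3, 2129 and 23524 UMIs in hepatic cells. On chromosome 14, SERPINA10 (94280455 to 94293271) had 2, SERPINA6 (94304248 to 94323394) 200, SERPINA1 (94376747 to 94390693) 41991, SERPINA5 (94561442 to 94593120) 1752 and SERPINA3 (94612377 to 94624055) 81. These counts are not scaled by length, so they show which genes were detected and not an order of levels.

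Low counts of hepatic genes were found outside the hepatic cells. In cardiomyocyte cells AFP stood at 27.3 CPM with and 7.94 CPM without the 27 cells that passed both limits, and SERPINA1 at 37.2 and 14.3 CPM. APOA1 was less concentrated in those cells: it was at 64.1 CPM with and 48.2 CPM without them, and 39.4% of cardiomyocyte cells had a UMI. After thinning to 3000 UMIs, APOA1 was detected in 97.8% of hepatic cells, 6.75% of epithelial cells (4.86 to 9.07%) and 13.1% of cardiomyocyte cells (12.6 to 13.6%), and AFP in 94.0%, 4.05% and 2.37% of the same groups. The median depths before thinning were 18047, 15028 and 13301 UMIs. APOA1 in cardiomyocyte cells differed from the pattern of AFP, SERPINA1 and ALB (19.4%, 0.337% and 0.0830% for ALB). In cardiomyocyte cells given to no hashtag AFP was at 37.7 CPM and SERPINA1 at 52.4 CPM. In those of Hashtags 5, 7, 10 and 12 AFP ran from 6.02 to 16.6 CPM and SERPINA1 from 6.14 to 25.8 CPM. In the whole pool, 5185 cells had 2 hashtags at 20% or more each. Whether free RNA, the cells' own RNA or barcodes with more than 1 cell gave these counts was not tested.

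Hepatic cells varied widely in the breadth and strength of their liver profile. After thinning to 3000 UMIs, which left out 6 cells, each of the 134 hepatic cells had 3 to 43 of the 150 liver list genes, with a median of 15, against 0 to 9 (median 2) in epithelial cells and 0 to 23 (median 1) in cardiomyocyte cells. The lowest hepatic cells thus lie within the ranges of both other groups. Unthinned, 1 hepatic cell had TTR at 2636, APOA1 at 1179 and SERPINA1 at 208 CPM. It had no UMI of AFP, APOA2, FGB, RBP4, AHSG, ALB or PLG, so not every member shared a broad profile. Of 1912 genes at a thinned mean of 0.2 UMIs or more, 148 had a variance to mean ratio of 2 or more. The largest ratios of variance to mean were 54.6 for ALB, 33.3 for APOA1, 32.0 for APOC3, 31.7 for AFP, 29.9 for the heat shock gene HSPA1A and 24.4 for the natriuretic peptide NPPB, followed by MALAT1, APOA2, SERPINA1 and MT-CO2. Of these, APOA1, AFP and APOA2 chose the cells, so their spread depends on the rule, and HSPA1A had a UMI in 5.22% of the thinned cells. Thinning to 5000 UMIs gave 247 of 3120 genes, with 9 of the leading 10 in common.

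Some liver genes varied together from cell to cell. Over the 134 thinned cells, which share a library and a depth, Pearson's r of log counts was 0.68 for AHSG with RBP4 (Spearman's rho 0.61), 0.64 for AFP with APOA1 (0.68), 0.62 for APOA1 with APOC3 (0.65) and 0.58 for AFP with SERPINA1 (0.55). Others were close to 0, such as 0.07 for ALB with SERPINA1 (0.09) and -0.03 for HNF4A with SERPINA1 (-0.02), and HNF4A is sparse. The summed G2 and M phase genes had an r of -0.33 with AFP (-0.38) and -0.31 with SERPINA1 (-0.41). AFP and APOA1 helped to choose the cells, so values with these genes may reflect that choice. Of the pairs with a high r named here, only AHSG with RBP4 holds no rule gene.

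Clustering of the hepatic cells on 2000 variable genes without the rule genes gave 3 sub-clusters, which differed in plasma protein genes, division genes and heart muscle genes; their levels are descriptions. Sub-cluster 2, with 50 cells (35.7%), had the largest sum of the 4 rule genes (median 38147 CPM) and was led by APOC2, APOC3, HSPA6, ALB and AHSG. ALB was at 1248 CPM there (1176 to 1323), against 42.9 CPM (32.2 to 56.0) in sub-cluster 1, but 1 cell held 47.5% of its UMIs in sub-cluster 2 and another 50.0% in sub-cluster 1. Without these cells ALB was at 667 CPM in sub-cluster 2 and 21.8 CPM in sub-cluster 1. AHSG was at 1699 against 58.8 CPM (1530 against 38.3 CPM without the highest cell of each), CYP3A7 at 201 against 17.5 CPM and PLG at 187 against 21.4 CPM. DLK1 was also higher there, at 568 against 65.1 CPM.

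Sub-cluster 1, with 69 cells (49.3%), was led by SPP1 (194 CPM, and 1.86 CPM in all other hepatic cells), MT1G, NPPB and IGFBP3. Over all thinned hepatic cells, SPP1 had a UMI in 12.7% and NPPB in 20.9%. How many cells of the sub-cluster carried these genes was not examined. The G2 and M phase genes of sub-cluster 1 summed to 4299 CPM, against 1557 CPM in sub-cluster 2, and MKI67 was at 76.2 against 10.0 CPM. It held more of the factors FOXA2 (98.5 CPM, 81.9 to 117, against 55.6 CPM, 41.3 to 73.3), ONECUT1 (236 against 129 CPM) and SOX9 (82.6 against 38.9 CPM). CEBPA was lower (63.5 against 189 CPM), and the intervals of HNF4A and PROX1 overlapped. SERPINA1 (12545 against 20628 CPM) and AFP (5611 against 19085 CPM) were lower than in sub-cluster 2. So were the hepatoblast genes GPC3 (3577 against 6153 CPM), H19 (898 against 2307 CPM), IGF2 (315 against 665 CPM) and DLK1. Fetal and progenitor genes therefore did not share a direction between these sub-clusters. Sub-cluster 3, with 21 cells, had a median of 31488 UMIs, 12598 CPM of the heart muscle genes and 5 of the 9 cells marked as doublets, and was led by TNNI1, SMPX and NKX2-5. Sub-clusters 1 and 2 had similar depths, with medians of 15403 and 17268 UMIs, and 1456 and 1352 CPM of the heart muscle genes. The split depends on the resolution, which gave 1 cluster at 0.3 and 5 at 1.0.

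**Figure D4:**
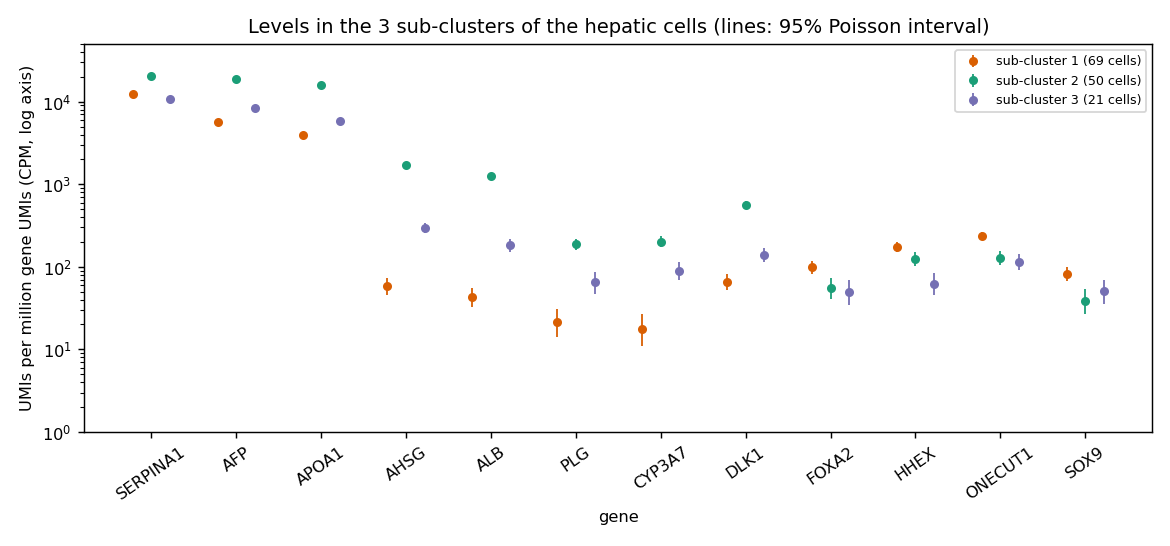
Levels of 12 genes in the 3 sub-clusters of hepatic cells (CPM on a log axis, lines are exact 95% Poisson intervals). AHSG, ALB, PLG, CYP3A7 and DLK1 stand far higher in sub-cluster 2 than in sub-cluster 1, whereas FOXA2, HHEX, ONECUT1 and SOX9 are highest in sub-cluster 1.

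Hepatic cells were unevenly spread over the hashtags. A hashtag was given to 10319 of the 21623 cells, those with at least 70% of 20 or more hashtag UMIs from 1 hashtag, and to 72 of the 140 hepatic cells. Hashtag 12 had 22 hepatic cells of 486 (4.53%, 2.86 to 6.77%), Hashtag 10 had 11 of 525 (2.10%, 1.05 to 3.72%), Hashtag 7 had 15 of 1378 (1.09%, 0.610 to 1.79%) and Hashtag 5 had 13 of 1262 (1.03%, 0.550 to 1.76%). These 4 hashtags held 61 of the 72. The median over the 13 hashtags was 0.268%, and Hashtags 1, 2 and 9 had none among 404, 751 and 452 cells, which allows shares of up to 0.743%, 0.399% and 0.664% by the floor of 3 counts, with exact upper bounds of 0.909%, 0.490% and 0.813%.

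The share of hepatic cells did not simply follow the share of cells outside heart muscle. Hashtag 1 had the smallest share of cardiomyocyte cells (35.4%) and 261 cells under the heart muscle limit, and none of them was hepatic, which leaves an exact upper bound of 1.40%. Of the cells under that limit, 19.3% were hepatic in Hashtag 10 (10.0 to 31.9%), 18.3% in Hashtag 12 (11.9 to 26.4%), 8.11% in Hashtag 7 and 6.07% in Hashtag 5. What each hashtag marks is not given, so these shares cannot be tied to a culture or a treatment.

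**Figure D5:**
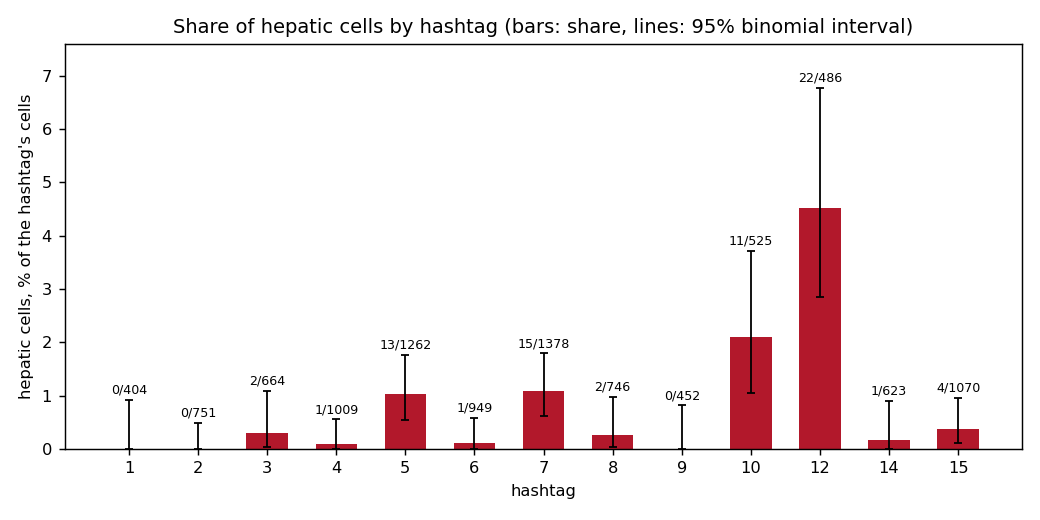
Share of each hashtag's cells that were hepatic (percent, bars from 0, lines are 95% Clopper-Pearson intervals, numbers above are hepatic cells over all cells of the hashtag). Hashtag 12 is highest at 4.53%, Hashtag 10 next at 2.10%, and 3 hashtags have none.

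Levels within the hepatic cells of the 4 hashtags with at least 10 such cells were close for some genes and far apart for others. SERPINA1 ran from 14767 to 17130 CPM and HNF4A from 45.2 to 60.2 CPM. AFP ran from 7989 CPM in Hashtag 7 to 13177 CPM in Hashtag 12, and APOA1 from 3999.6 CPM in Hashtag 7 to 16882 CPM in Hashtag 5. ALB was at 2009 CPM in Hashtag 5, 578 CPM in Hashtag 12, 85.9 CPM in Hashtag 10 and 48.1 CPM in Hashtag 7. In Hashtag 5, 1 cell held 94.0% of the albumin UMIs, and without the highest cell of each hashtag the levels were 128 CPM in Hashtag 5, 353 CPM in Hashtag 12, 50.4 CPM in Hashtag 10 and 28.4 CPM in Hashtag 7. DLK1 ran from 145 to 794 CPM, with Hashtag 5 the highest (546 CPM there without its highest cell). Liver list genes were higher than in cardiomyocyte cells of the same hashtag in 50 of 56 measured in Hashtag 5, 44 of 49 in Hashtag 7, 36 of 41 in Hashtag 10 and 58 of 64 in Hashtag 12, where 8.27%, 9.88%, 7.34% and 10.2% of all measured genes were higher.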

How the data were processed

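Gene UMIs and hashtag UMIs were measured in 1 pool captured with 10x Genomics reagents. The deposited file is 1 matrix of unnormalized UMI counts for 24038 barcodes, 36601 genes and 13 hashtags, made with Cell Ranger 4.0.0 per the file headers and with hg38 per the submitters' processing notes. How reads were aligned, which annotation release was used and how cells were called is not stated (not given in the sources used here). All barcodes come from 1 library, so no barcode is shared between libraries.

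The filter was 500 genes and 1000 gene UMIs or more, with a mitochondrial share of 25% or less, and 2415 barcodes failed it. Members and gene lists were chosen with earlier results of these data known. UMIs were summed per group and given as CPM with exact Poisson intervals; intervals of ratios are exact conditional binomial ones and those of shares Clopper-Pearson (Python 3.11.15 with scipy 1.17.1). A group with 0 counts of a gene was set against a floor of 3 counts for the group. With 1 pool, no test was made. The ratio and its interval were checked on simulated counts.

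Doublets were marked with Scrublet in scanpy 1.11.5 (2508 cells, 11.6%, against an expected 17.3%) and kept, except in the alternative without them. Cells were thinned to 3000 UMIs with a fixed seed for shares, variances and correlations. Members were clustered with leidenalg 0.10.2 (20 components, 15 neighbours, resolution 0.5). TMM factors came from edgeR 4.0.16 in R 4.3.3. Positions are from GENCODE 29 and sequences from RefSeq, GRCh38.p14; the first listed start of each gene was used, and the TATA box and the promoters shown were chosen after the values were seen.

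The genes named were the 6 markers, a fixed set (such as ALB, HNF4A, HHEX, PROX1, SOX17, CDX2, PDX1, NKX2-1, EPCAM, CYP7A1, CYP3A7, SERPINA1 and FGB), the leading genes by ratio in each list (4 at most), the 10 higher and 5 lower genes outside the lists at 50 CPM or more, and the 10 most variable genes; other list members and genomic neighbours that the text names were chosen after their values were seen, and some genes are not reported here. Alternatives were TMM scaling, other minimum levels, a fold of 1.5, removal of marked doublets, stricter cell filters, other limits of the rule, no Hashtag 12, a hashtag share of 90%, thinning to 5000 UMIs and other resolutions. Leaving out of the cardiomyocyte cells the 27 past both limits, and of a group the 1 cell with the most UMIs of a gene, was chosen after seeing the data.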

Additional observations from a re-analysis of the deposited data

How the results depend on the processing

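Counts of genes followed the chosen limits. The genes followed under the alternatives were the markers, the fixed set and those leading by ratio inside and outside the lists. None of these that was called higher or lower changed its direction, while 21 of their ratios that were not called changed sign in at least 1 alternative. The direction of other genes was not followed, including many that the text gives, such as APOC3, NPPB, AMBP, AHSG and APOB. The balance of calls against cardiomyocyte cells turned: without a minimum level 67.4% of them were on the higher side, against 42.6% as reported, and the median log2 ratio of all genes was 0.11 in place of -0.08. Among the 21, SPP1 against all other non-cardiomyocyte cells had a log2 ratio of -1.69 with a limit of 10000 CPM for the 4 rule genes in place of 0.24, and MYL4 against epithelial cells one of -1.44 without the hepatic cells at 10000 CPM or more of the heart muscle genes, in place of 0.16. Without a minimum level, 5561 genes were higher and 2695 lower in hepatic than in cardiomyocyte cells (1016 and 1370 as reported), 845 and 2368 against epithelial cells (553 and 993), and 1653 and 2983 against all other non-cardiomyocyte cells (484 and 1183). At a minimum of 50 CPM the counts were 323 and 566, 207 and 281, and 196 and 286, and higher liver list genes were 39 in each comparison, in place of 68, 69 and 69. At a fold of 1.5 they were 1807 and 2346, 951 and 2112, and 825 and 2475. Thinning to 5000 UMIs gave 247 variable genes, and resolutions of 0.3 and 1.0 gave 1 and 5 clusters. Hashtag 12 ranked first in hepatic share in each alternative for hashtags except the hashtag share of 90%, where it ranked 2 with 4.76%.

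Without cells marked as doublets, 95 of 365 ratios of the followed genes moved, and 49 of 122 did without the 27 cells past both limits. SPP1 in hepatic over cardiomyocyte cells had a log2 ratio of 3.40 with a limit of 10000 CPM for the 4 rule genes, in place of 5.33; the cause was not tested. No paired analysis was possible because the series has 1 gene library and no replicates. Genes under 10 CPM had few UMIs in 140 cells, so depth limits statements on them.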

Other observations

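Among the growth factor genes, IHH, a hedgehog ligand of endoderm, had 19 UMIs in hepatic cells (6.62 CPM), against 0.204 CPM in epithelial cells, where SHH was at 23.2 CPM against 4.88 CPM in hepatic cells. Both were too low in hepatic cells to be measured against cardiomyocyte cells.

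H19 was unevenly spread within the hepatic cells: after thinning to 3000 UMIs the 10 highest of 134 cells held 39.5% of its UMIs, and it was detected in 76.9% of hepatic cells, 22.1% of epithelial cells and 10.4% of cardiomyocyte cells. In sub-cluster 2 it stood at 2307 CPM (2209 to 2409), against 898 CPM (847 to 952) in sub-cluster 1, and IGF2 stood at 665 against 315 CPM.

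The heat shock genes HSPA6 and HSPA1A were among the leading genes of sub-cluster 2, at 73.4 and 165 CPM, against 0 and 11.2 CPM in the other hepatic cells. HSPA1A was detected in 5.22% of thinned hepatic cells, with a mean of 0.306 UMIs and a variance to mean ratio of 29.9. Its summed level therefore rests on few cells and does not describe the sub-cluster as a whole. How far single cells carried HSPA6 was not examined.

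The 68 hepatic cells given to no hashtag had SERPINA1 at 13262 CPM, AFP at 9027 CPM and ALB at 286 CPM, each within or just below the range of the 4 hashtags with at least 10 hepatic cells.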
